A study of Mus musculus with 76 samples.

Results

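The glutathione peroxidase and superoxide dismutase genes described here are *Gpx1*, *Gpx3*, *Gpx4*, *Gpx7*, *Gpx8*, *Sod1*, *Sod2* and *Sod3*, 8 of the 55536 genes in the count table, taken by their gene symbols. RNA from 38 whole mouse tumors was sequenced as 2 technical replicate libraries per tumor with HT3DGE, a method that reads transcripts close to their 3′ end. The study added catalase to tumors in 2 ways. Extracellular catalase (EC CAT) was CAT-ABP, a catalase carrying an alum-binding peptide that holds it on injected alum particles, and intracellular catalase (IC CAT) was human catalase made by the tumor cells themselves.

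All mice were female Balb/c mice carrying a subcutaneous flank tumor, and every group, controls included, received an intratumoral injection of alum. CT26, a colorectal carcinoma line, was inoculated at 1000000 cells, and 6 of its tumors received 20 µg CAT-ABP with 100 µg alum while 5 received alum only. 4T1, a mammary carcinoma line, was inoculated at 500000 cells, and again 6 tumors received CAT-ABP + alum and 5 alum only. 4T1-CAT cells carried a lentiviral, doxycycline (DOX)-inducible catalase together with GFP, and 5 such tumors received each treatment. 4T1-control cells, also inoculated at 500000, carried GFP alone, and all 6 tumors received alum only. Mice with either engineered line were put on a DOX diet on day 4, while mice with unmodified 4T1 were not. By the sample labels the injection was given on day 6 and tumors were taken on day 8, whereas the study's own timeline places each of these steps later. The engineered lines were selected with puromycin and sorted for GFP, and nothing describes them as single clones. Human catalase and GFP are not part of the mouse count table, so transgene expression could not be checked here.

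Superoxide dismutases convert superoxide to hydrogen peroxide, and glutathione peroxidases reduce hydrogen peroxide or lipid hydroperoxides to water or alcohols, so the substrate of catalase is the product of the first family and a substrate of the second. SOD1 is the cytosolic copper-zinc enzyme, SOD2 the mitochondrial manganese enzyme and SOD3 the secreted copper-zinc enzyme. GPX1 is the abundant cytosolic peroxidase, GPX3 is secreted, GPX4 acts on lipid hydroperoxides in membranes, and GPX7 and GPX8 reside in the endoplasmic reticulum (ER). GPX1, GPX3 and GPX4 use selenocysteine at the active site, which is encoded by an in-frame TGA stop codon, whereas GPX7 and GPX8 use cysteine.

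This split can be read from the coding sequences. Sequences are shown because *Gpx7* and *Gpx8*, the 2 cysteine enzymes, were the members that differed between tumor lines under both treatments. The 2 genes differed in opposite directions. In these comparisons 42.4% and 45.5% of all genes differed at an adjusted p of at most 0.05. Each line gives 27 coding bases, 5′ to 3′, from the GENCODE M21 transcripts on GRCm38, with the active-site codon in capitals.
Gpx1: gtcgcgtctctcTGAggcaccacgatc
Gpx3: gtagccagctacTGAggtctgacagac
Gpx4: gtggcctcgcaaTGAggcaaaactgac
Gpx7: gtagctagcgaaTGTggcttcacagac
Gpx8: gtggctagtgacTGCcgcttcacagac
The codon is number 47 of *Gpx1* (chr9:108339451-108339453, + strand), 73 of *Gpx3* (chr11:54907256-54907258, + strand) and 129 of the longest *Gpx4* transcript (chr10:80054737-80054739, + strand), and in all 3 it is the annotated selenocysteine TGA. It is number 56 of *Gpx7*, where it reads TGT (chr4:108403430-108403432, − strand), and 79 of *Gpx8*, where it reads TGC (chr13:113045661-113045663, − strand). All 5 codons lie in coding exons. Of the other family members, *Gpx2*, *Gpx5* and *Gpx6* were too low to be tested in any comparison.

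Total counts per tumor lay between 493044 and 9077549 (median 4827388), and all counts below were first summed over the 2 libraries of a tumor. The tumor of 4T1-control replicate 2 was the shallowest and held only 2 *Gpx7* counts, 1 *Gpx3* count and no *Sod3* count. Levels are CPM, counts scaled to a common library size of 1000000, after normalization by the trimmed mean of M values (TMM). *Gpx1*, *Gpx8*, *Sod1* and *Sod2* had at least 39 counts in every tumor, *Gpx4* had at least 6, and *Sod3* had between 0 and 19. The low counts of *Sod3* kept it out of 7 of the 8 comparisons between 2 groups, so that 7 members were tested there and all 8 in the comparison within 4T1-CAT. The part of each index tag before the hyphen in the deposited sample sheet was read here as the sequencing pool, which is an inference. By this reading, 3 of the 5 4T1 tumors given alum shared a pool with all 4T1-CAT and 4T1-control tumors. The other 2 shared one with all CT26 tumors and all unmodified 4T1 tumors given CAT-ABP. These were whole tumors, so a smaller number of cells of a type and less RNA per cell cannot be told apart. The 8 epithelial markers (*Epcam*, *Cdh1* and keratin genes among them) summed to between 1506 and 2801 CPM in the 4T1 tumors of all 5 groups and to between 18.8 and 32.6 CPM in the CT26 tumors, where *Cldn7* was at 0 in every tumor. CT26 tumors thus had low levels of the epithelial markers of a carcinoma.

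**Figure D1:**
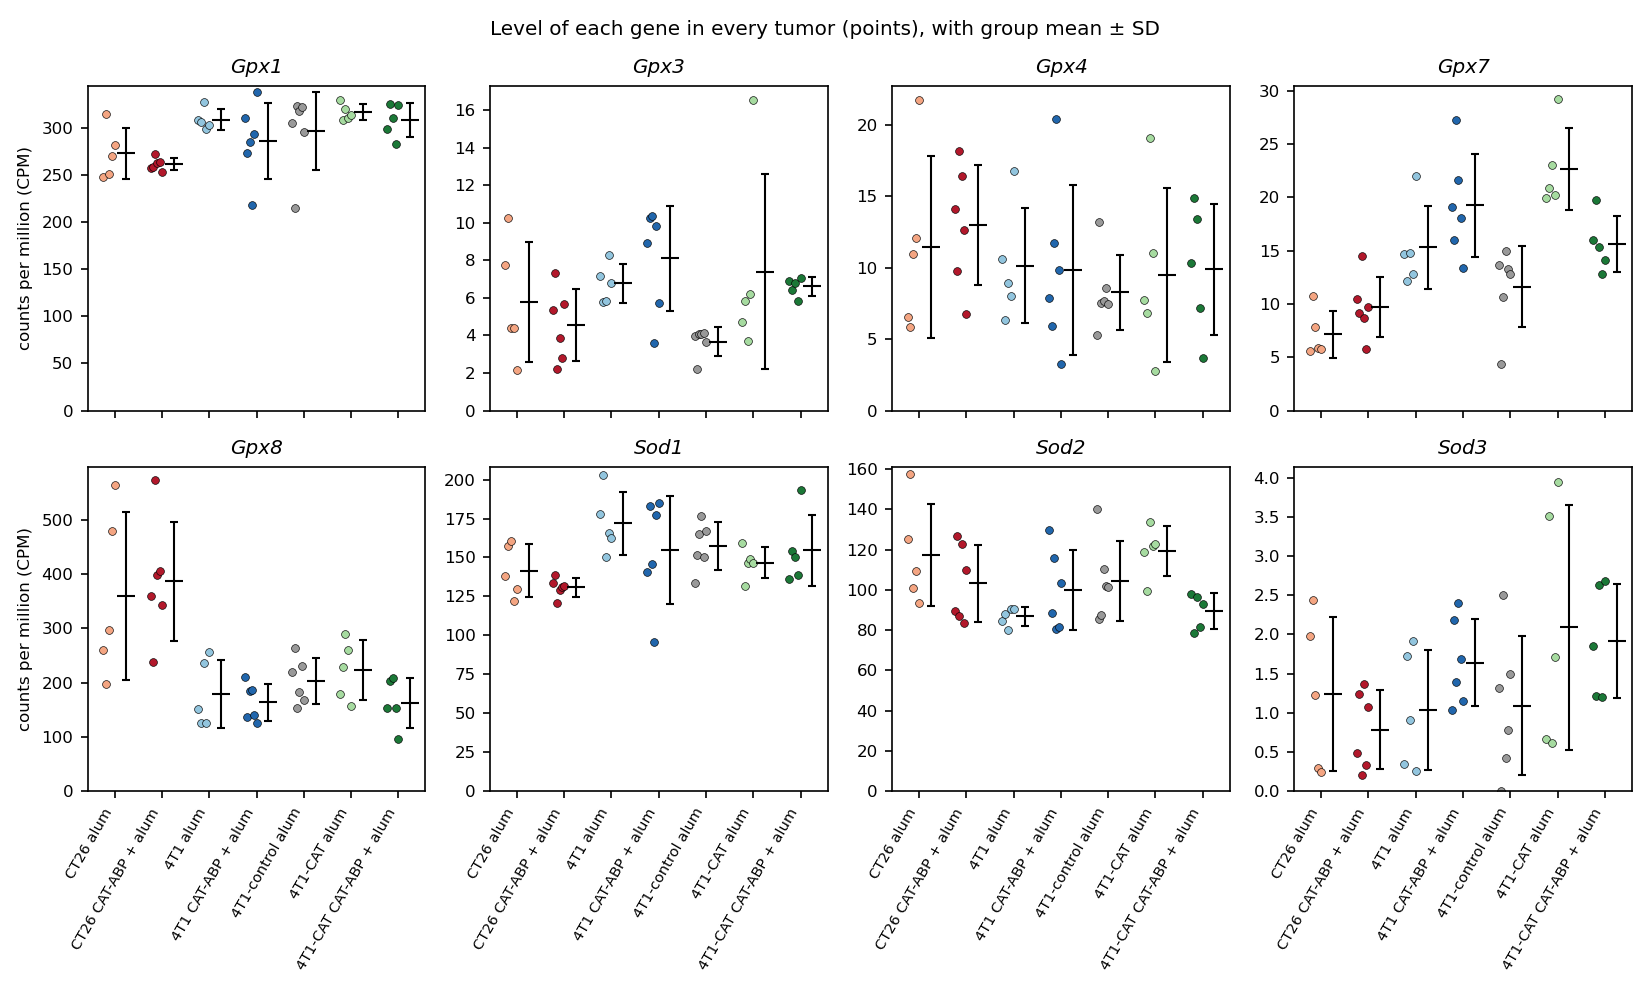
Level of each of the 8 genes in CPM (vertical axis, starting at 0) in each tumor (points) of the 7 groups, with the group mean ± SD beside the points. *Gpx7* was lower and *Gpx8* higher in both CT26 groups than in the unmodified 4T1 groups, and *Gpx1* varied least, between group means of 261 and 316 CPM.

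Across the 7 groups, *Gpx1*, *Sod1* and *Sod2* varied least. The highest group mean was 1.21 times the lowest for *Gpx1*, 1.31 times for *Sod1* and 1.38 times for *Sod2*. For *Gpx7* it was 3.17 times, from 7.15 CPM in CT26 tumors given alum to 22.7 CPM in 4T1-CAT tumors given alum. The order for *Gpx7* from the top was 4T1-CAT alum (22.7 ± 3.85 CPM, SD, n = 5), 4T1 CAT-ABP + alum (19.2 ± 4.82, n = 6), 4T1-CAT CAT-ABP + alum (15.6 ± 2.62, n = 5), 4T1 alum (15.3 ± 3.94, n = 5), 4T1-control alum (11.6 ± 3.81, n = 6), CT26 CAT-ABP + alum (9.70 ± 2.84, n = 6) and CT26 alum (7.15 ± 2.2, n = 5). For each of the 8 genes, no neighbours in such an order were further apart than the larger of their SDs. For *Gpx8* the ratio of the highest to the lowest group mean was 2.37, for *Gpx3* 2.21, for *Sod3* 2.67 and for *Gpx4* 1.57, and for *Gpx4* the SD within groups reached 6.36 CPM around means of 8.28 to 13.0 CPM.

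The first question was whether extracellular catalase altered these genes. In CT26 tumors, none of the 7 members tested passed edgeR's quasi-likelihood test for CAT-ABP + alum (adjusted p at most 0.05 over all 12830 genes, Benjamini-Hochberg adjustment). The test called 0% of all genes in this comparison, and 311 genes but no member had an unadjusted p under 0.05. DESeq2 called 1 gene and no member. *Gpx7* had the largest value, 9.70 ± 2.84 CPM against 7.15 ± 2.2 CPM, a log2 fold change of 0.46 (SE 0.25, adjusted p = 1.00 in edgeR). Its 5 alum tumors had 5.56, 10.8, 7.79, 5.88 and 5.80 CPM, and the 6 CAT-ABP + alum tumors ranged from 5.73 to 14.5 CPM with a median of 9.44, so 1 treated tumor lay above all controls. *Gpx1* was the most tightly bounded, at −0.06 with a 95% interval of −0.29 to 0.16. The intervals were wider for *Gpx3* (−1.06 to 0.48), *Gpx4* (−0.44 to 0.77) and *Gpx7* (−0.04 to 0.95), so larger changes of these genes were not excluded. The median log2 fold change of the 7 members was −0.06, beside −0.00 for all genes.

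In 4T1 tumors, none of the 7 members passed the test for the same treatment. The test called 0% of 13092 genes, with 377 genes and no member at an unadjusted p under 0.05 and no call by DESeq2. *Gpx7* went from 15.3 ± 3.94 to 19.2 ± 4.82 CPM (log2 fold change 0.30, SE 0.20, adjusted p = 0.999 in edgeR), and its sign turned to −0.08 in the second technical replicate alone. With the index tag pool as a block it was 0.49 (SE 0.29, adjusted p = 0.984 in edgeR). All 6 treated tumors but only 2 of the 5 controls were in the same pool. Treatment and pool are thus in part confounded here and in the differences of effects that use these groups. *Sod2* had 84.6, 88.2, 79.9, 90.4 and 90.7 CPM in the 5 alum tumors and from 80.4 to 130 CPM (median 96.0) in the 6 treated ones, 3 of which exceeded every control (0.20, SE 0.14). The 95% intervals were −0.36 to 0.13 for *Gpx1*, −0.46 to 0.16 for *Sod1* and −0.55 to 0.26 for *Gpx8*. Those of *Gpx4* (−0.90 to 0.44), *Gpx3* (−0.13 to 0.77) and *Gpx7* (−0.10 to 0.70) did not exclude larger changes. The effect of CAT-ABP did not pass the test of a difference between CT26 and 4T1 for any of 8 members. That interaction called 0% of 14160 genes, with 509 genes and no member at an unadjusted p under 0.05.

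**Figure D2:**
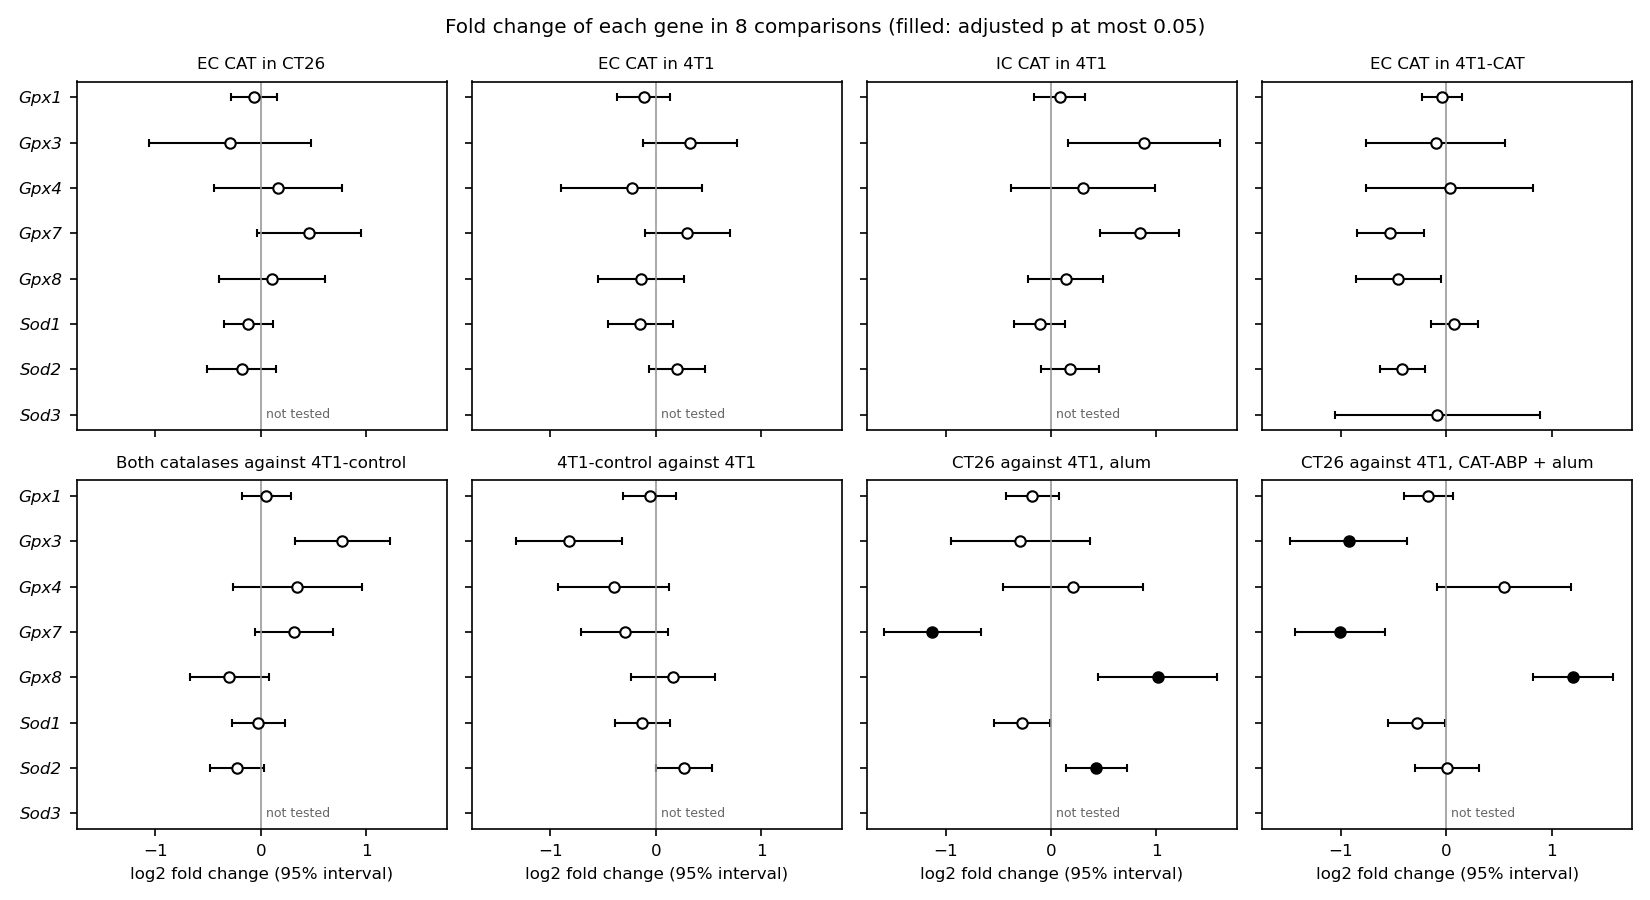
Log2 fold change with its 95% interval for each gene in 8 comparisons between 2 groups, with filled points where the adjusted p was at most 0.05. The intervals use normal quantiles and are not adjusted for the number of genes. They can exclude 0 where the unadjusted p is above 0.05. Filled points occur only in the comparisons of CT26 with 4T1, for *Gpx7* and *Gpx8* in both and for *Sod2* or *Gpx3* in one of them. *Sod3* was too low to be tested in 7 panels.

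Intracellular catalase was examined as 4T1-CAT against 4T1-control tumors, both given alum and DOX diet. No member passed the test, which called 0% of 12534 genes, with 637 genes at an unadjusted p under 0.05, *Gpx7* and *Gpx3* among them. DESeq2 called 6 genes and no member. *Gpx7* had 20.0, 20.9, 23.1, 20.2 and 29.2 CPM in the 5 4T1-CAT tumors and between 4.39 and 14.97 CPM (median 13.0) in the 6 4T1-control tumors. The groups did not overlap, as was the case for 0.63% of all genes tested. The log2 fold change was 0.84 (SE 0.19, 95% interval 0.47 to 1.22, unadjusted p = 0.000356, adjusted p = 0.477 in edgeR), and the two-sided exact permutation test gave p = 0.00217, the smallest that 5 against 6 tumors allow. Without 4T1-control replicate 2, which held 2 *Gpx7* counts, the value was 0.79 (adjusted p = 0.342). With no filter on low counts the adjusted p was 0.0379, the single alternative of those tried under which *Gpx7* was called here.

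*Gpx3* had 4.69, 5.86, 3.69, 6.22 and 16.6 CPM in 4T1-CAT tumors and between 2.19 and 4.15 CPM (median 4.01) in 4T1-control tumors. 4 of the 5 4T1-CAT tumors lay above all controls and 1, at 16.6 CPM, stood far above its group. The log2 fold change was 0.88 (SE 0.37, adjusted p = 0.877 in edgeR) and 0.41 without that tumor (4T1-CAT alum replicate 5). *Sod2* was 119 ± 12.5 against 105 ± 19.9 CPM (0.18, SE 0.14), *Sod1* 147 ± 9.94 against 157 ± 15.5 CPM (−0.11, SE 0.12) and *Gpx1* 316 ± 8.52 against 296 ± 41.3 CPM (0.08, SE 0.12). In the same comparison the mean log2 CPM of the 8 fibroblast markers, all detected in both groups, was 7.39 against 6.95 (two-sided exact permutation test, p = 0.00649), and their summed levels were 3052 to 6261 CPM against 2280 to 3327 CPM. In all, 5 of 11 lists of cell type markers had p under 0.05 by that test here, and the other 4 differed by more than the fibroblast list (0.44), at 1.22 for skeletal muscle, 0.95 for erythroid cells, 0.69 for T cells and 0.57 for neutrophils. Within groups, over 38 tumors and as a description, *Gpx3* correlated with the macrophage mean at r = 0.77 and with the fibroblast mean at r = 0.74. Its r was 0.69 with the T cell mean and 0.67 with the endothelial mean. For *Gpx7* these were 0.56, 0.50, 0.34 and 0.44, and r was 0.47 with the erythroid mean. The macrophage list differed here by 0.27 and did not pass (two-sided exact permutation test, p = 0.262). The part of these cell types in the differences of *Gpx7* and *Gpx3* was not tested.

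CAT-ABP in 4T1-CAT tumors added extracellular to intracellular catalase. The reference here, 4T1-CAT tumors given alum, was also the test group for intracellular catalase, so these comparisons are not independent. Of the 7 groups, it had the highest mean of *Gpx7* (22.7 CPM) and of *Sod2* (119 CPM). None of the 8 members passed edgeR's test, which called 0% of 13093 genes, although 2000 genes had an unadjusted p under 0.05, among them *Sod2*, *Gpx7* and *Gpx8*, all lower with CAT-ABP. *Sod2* had 119, 99.4, 134, 122 and 123 CPM in the 5 tumors given alum and 97.7, 78.5, 96.3, 81.5 and 93.1 CPM in the 5 given CAT-ABP + alum. The groups did not overlap, as for 2.93% of all genes tested. The log2 fold change was −0.42 (SE 0.11, adjusted p = 0.187 in edgeR), and DESeq2, which called 249 genes of the 4461 to which it gave an adjusted p, called *Sod2* (−0.43, adjusted p = 0.0158). In single technical replicates it was −0.32 in the first and −0.17 in the second. *Gpx7* did not overlap either, at 16.0, 19.7, 15.4, 12.8 and 14.1 CPM against 20.0, 20.9, 23.1, 20.2 and 29.2 CPM (−0.53, SE 0.16, adjusted p = 0.197 in edgeR), and DESeq2 gave it no adjusted p. For both genes the two-sided exact permutation test gave p = 0.00794, the smallest that 5 against 5 tumors allow.

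*Gpx8* was 163 ± 45.8 against 223 ± 54.8 CPM (−0.45, SE 0.21, adjusted p = 0.317 in edgeR), with overlap of the groups. *Gpx1*, *Gpx3*, *Gpx4*, *Sod1* and *Sod3* had log2 fold changes from −0.10 to 0.07, and those of *Gpx4*, *Gpx3* and *Sod3* moved once the trend of each tumor with transcript length was a covariate. Of the 11 marker lists, 2 had p under 0.05 by the two-sided exact permutation test, skeletal muscle and fibroblasts (p = 0.0317 for each). The mean log2 CPM of the skeletal muscle list was 3.78 with CAT-ABP and 4.48 without, and that of the fibroblast list 7.07 and 7.39. The part of these differences in the values of *Gpx7* was not tested. Compared with the effect of CAT-ABP in unmodified 4T1, the effect in 4T1-CAT was lower by a log2 difference of −0.62 for *Sod2* (SE 0.17, unadjusted p = 0.00151) and −0.83 for *Gpx7* (SE 0.27, unadjusted p = 0.00479). Neither passed at an adjusted p of 0.529, and this interaction called 0% of 13851 genes, with 1218 at an unadjusted p under 0.05 and none called by DESeq2.

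Tumors with both catalases were also set against 4T1-control tumors given alum. Here edgeR called 3 of 12781 genes (0.0235%) and none of the 7 members, whereas DESeq2 called 510 of the 9552 genes to which it gave an adjusted p, and *Gpx3* was not among those 9552. *Gpx3* was the member furthest from the controls, at 6.92, 6.44, 6.80, 5.83 and 7.07 CPM against a range of 2.19 to 4.15 CPM (median 4.01). The groups did not overlap, as for 1.98% of all genes tested, and the log2 fold change was 0.77 (SE 0.23, adjusted p = 0.109 in edgeR). *Gpx7* was 15.6 ± 2.62 against 11.6 ± 3.81 CPM (0.32, SE 0.19, adjusted p = 0.414 in edgeR). Of the 11 marker lists, 2 had p under 0.05 by the exact permutation test, the neutrophil list at a mean log2 CPM of 2.86 against 2.33 and the erythroid list at 3.50 against 2.53. This comparison shares its 4T1-control tumors with that of intracellular catalase and its treated tumors with that of CAT-ABP in 4T1-CAT.

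The 4T1-control line was set against unmodified 4T1, both given alum. They differ in the lentiviral GFP, in selection and in the DOX diet, which cannot be told apart here. No member passed the test and 0% of 12431 genes were called, with 1307 genes and 1 member at an unadjusted p under 0.05 and 16 genes called by DESeq2. That member was *Gpx3*, to which DESeq2 gave no adjusted p, at 7.19, 5.77, 5.84, 8.28 and 6.82 CPM in 4T1 and between 2.19 and 4.15 CPM in 4T1-control tumors, without overlap, as for 1.16% of all genes tested. The log2 fold change was −0.82 (SE 0.26, adjusted p = 0.264 in edgeR) and −0.86 with the index tag pool as a block. The 4T1-control tumors were thus the lowest of the 7 groups for *Gpx3*, at 3.68 ± 0.75 CPM, and the mean log2 CPM of the epithelial markers, the 1 of 11 marker lists with p under 0.05 here, was lower than in 4T1 by a difference of −0.44 (two-sided exact permutation test, p = 0.0411). They are also the reference for the *Gpx3* values of 0.88 and 0.77 given above, neither of which passed the test and the first of which was 0.41 without 1 tumor, and unmodified 4T1 tumors given alum had 6.78 ± 1.04 CPM. The same 4T1-control tumors are the reference for the *Gpx7* values of 0.84 and 0.32. Their *Gpx7* level was 11.6 ± 3.81 CPM against 15.3 ± 3.94 CPM in 4T1, with overlap (−0.29, SE 0.21, adjusted p = 0.692 in edgeR).

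CT26 and 4T1 tumors were compared to show how the family differed between tumor lines. With alum, edgeR called 3 of 7 members beside 42.4% of all 12817 genes, and with CAT-ABP + alum 3 of 7 beside 45.5% of 13016 genes, so members were called about as often as genes in general. The medians over the members were −0.18 and −0.17, beside 0.02 and −0.02 over all genes. *Gpx7* was lower and *Gpx8* higher in CT26 under both treatments. *Sod2* was higher in CT26 with alum, and *Gpx3* was lower with CAT-ABP + alum.

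*Gpx7*, which passes oxidizing equivalents from peroxide to protein disulfide isomerases in the ER, lies on chromosome 4 (108400390 to 108406961, − strand, GRCm38). With alum it had 5.56, 10.8, 7.79, 5.88 and 5.80 CPM in CT26 and 14.7, 12.1, 14.8, 12.8 and 22.02 CPM in 4T1, without overlap, as for 29.9% of all genes tested. The log2 fold change was −1.12 (SE 0.24, adjusted p = 0.00128 in edgeR). With CAT-ABP + alum, CT26 tumors ranged from 5.73 to 14.5 CPM (median 9.44) and 4T1 tumors from 13.4 to 27.3 CPM (median 18.6), and 5 of 6 CT26 tumors lay below every 4T1 tumor (−1.01, SE 0.22, adjusted p = 0.00106 in edgeR). Both technical replicates showed the difference on their own, at −1.03 and −0.98 in mean log2 CPM with alum and −1.04 and −0.69 with CAT-ABP + alum. *Gpx7* was called under each alternative tried for these comparisons, among them the index tag pool as a block with alum (−0.94, adjusted p = 0.0346).

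*Gpx8*, an ER membrane peroxidase that acts on peroxide made during disulfide formation, lies on chromosome 13 (113042753 to 113046410, − strand). With alum it had 261, 198, 296, 479 and 564 CPM in CT26 and 151, 125, 235, 126 and 256 CPM in 4T1, and 4 of 5 CT26 tumors lay above every 4T1 tumor (log2 fold change 1.01, SE 0.29, adjusted p = 0.0103 in edgeR). With CAT-ABP + alum the range was 239 to 574 CPM (median 379) in CT26 and 126 to 210 CPM (median 162) in 4T1, without overlap, as for 22.3% of all genes tested (1.202, SE 0.20, adjusted p = 7.3e-05 in edgeR). *Gpx8* overlaps *Cdc20b* on the opposite strand, but that gene had 2 counts in all tumors together.

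The level of *Gpx8* moved with a property of the whole library. For each tumor the log2 CPM of 11263 genes, as deviations from each gene's mean over tumors, was regressed on the log10 of transcript length. The slope ranged from −0.67 to 0.54 log2 units per 10-fold length over the 38 tumors. After group means were subtracted, *Gpx8* correlated with this slope at r = −0.95 (38 tumors, as a description), and 1.43% of 11275 other genes had a lower r. *Gpx4* had r = −0.66, *Sod1* 0.53, *Gpx3* 0.54 and *Sod3* 0.64, while *Gpx1* (0.09), *Gpx7* (−0.07) and *Sod2* (0.09) had values near 0. Values of this size were common, as 18.8% of other genes had a larger absolute r than *Gpx4*. This share was 34.3% for *Sod1*, 32.2% for *Gpx3* and 21.3% for *Sod3*. The mean slope was −0.21 in CT26 and 0.14 in 4T1 with alum (two-sided exact permutation test, p = 0.103), and −0.32 and 0.17 with CAT-ABP + alum (p = 0.013, same test).

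**Figure D3:**
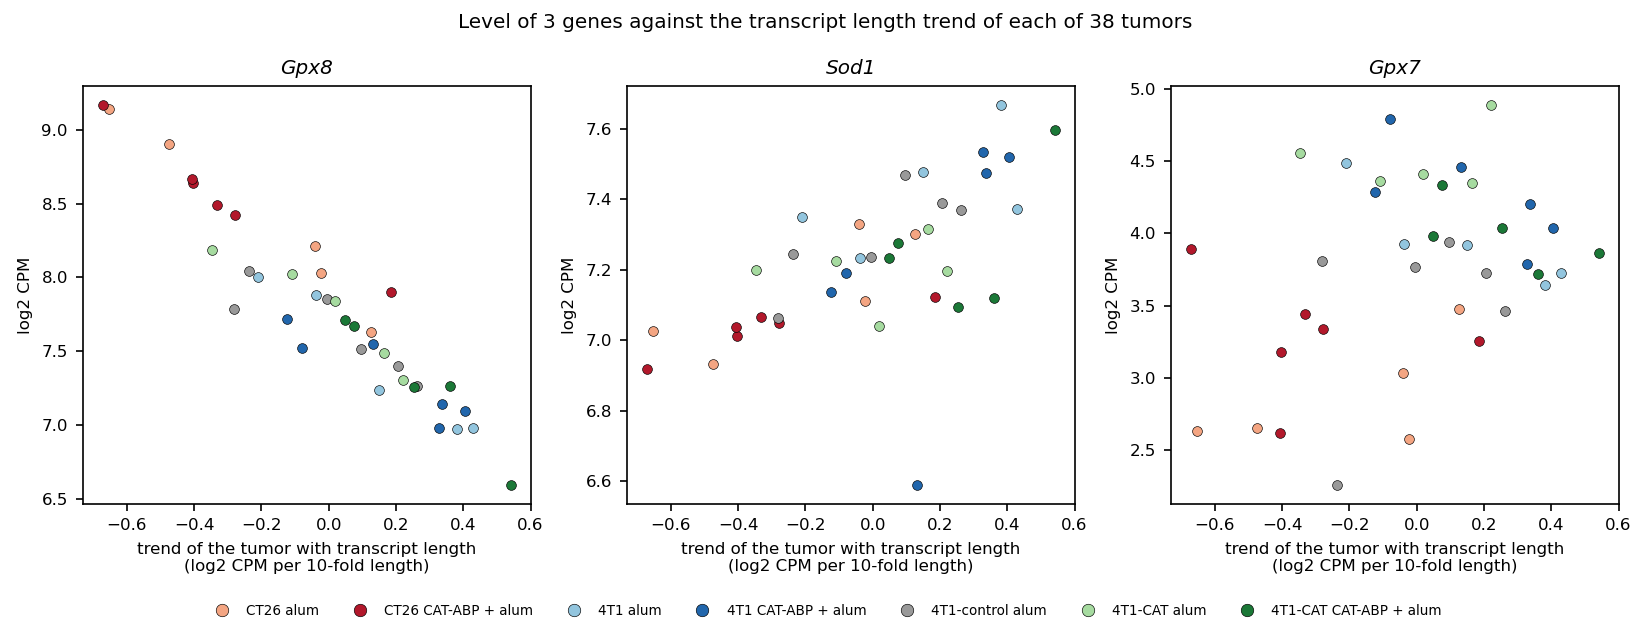
Log2 CPM of *Gpx8*, *Sod1* and *Gpx7* (vertical axes, each on its own scale) against the slope of each tumor's log2 CPM on log10 transcript length (horizontal axis), for 38 tumors colored by group. *Gpx8* fell along the slope in all groups together and *Sod1* rose, while *Gpx7* had r = 0.34 over all tumors and −0.07 within groups, and CT26 tumors lay at slopes up to 0.18.

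With the slope as a covariate in edgeR, an alternative chosen after the values were seen, *Gpx8* stayed called and its log2 fold change shrank from 1.01 to 0.33 (SE 0.10, adjusted p = 0.0132) with alum and from 1.202 to 0.52 (SE 0.12, adjusted p = 0.00284) with CAT-ABP + alum. *Gpx7* went from −1.12 to −1.19 (adjusted p = 0.00161) and from −1.01 to −1.35 (adjusted p = 0.00066). In 4T1-CAT, the *Gpx8* value for CAT-ABP went from −0.45 to −0.00 (SE 0.10) under this covariate, while *Sod2* was −0.39 (SE 0.11) and *Gpx7* −0.48 (SE 0.19). In the same fit *Gpx4* moved from 0.03 to 1.04 (SE 0.24, adjusted p = 0.118), the largest value of any member there, *Gpx3* from −0.10 to −0.42 (SE 0.36) and *Sod3* from −0.08 to −0.46 (SE 0.60). For intracellular catalase *Gpx7* was 0.84 with and without it. Where the lines are compared, slope and line are in part confounded.

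**Figure D4:**
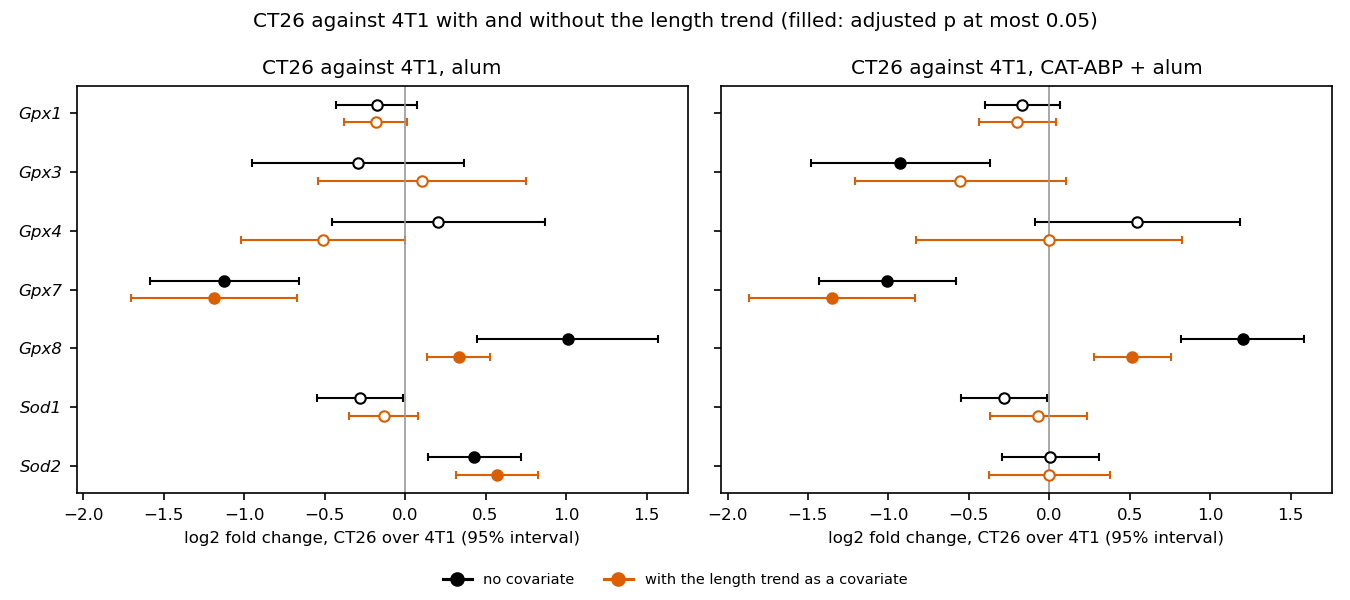
Log2 fold change of CT26 over 4T1 with its 95% interval (normal quantiles) for 7 genes. Values are without (black) and with (orange) the slope on transcript length as a covariate, filled where the adjusted p was at most 0.05. *Gpx8* moved from 1.01 to 0.33 and from 1.202 to 0.52, *Gpx3* was no longer called, and *Gpx7* stayed at or below −1.01.

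*Sod2*, which converts superoxide in the mitochondrial matrix, had 125, 157, 101, 109 and 93.5 CPM in CT26 tumors given alum and 84.6, 88.2, 79.9, 90.4 and 90.7 CPM in 4T1 tumors given alum. The groups did not overlap, as for 29.9% of all genes tested, and the log2 fold change was 0.43 (SE 0.15, adjusted p = 0.0292 in edgeR). It was 0.30 (adjusted p = 0.0671) without CT26 alum replicate 2, the highest tumor, and leaving out any of 6 of the 10 tumors ended the call, with values of 0.40 to 0.43 in the other 5, as did the index tag pool as a block (0.43, adjusted p = 0.128). With the length slope as a covariate it was 0.57 (adjusted p = 0.00196). With CAT-ABP + alum, *Sod2* was 103 ± 19.0 against 99.9 ± 20.0 CPM (0.01, 95% interval −0.29 to 0.31). The change of the line difference between treatments was −0.40 (SE 0.22, unadjusted p = 0.0765, adjusted p = 1.0 in edgeR), so a difference between the treatments was not shown. The longest *Sod2* transcript ends in a stretch whose last 300 bases match 158 other genes over at least 100 bases at 90% identity or more, which leaves the placement of reads there uncertain.

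*Gpx3*, the secreted peroxidase, had a range of 2.24 to 7.32 CPM (median 4.61) in CT26 and 3.60 to 10.4 CPM (median 9.38) in 4T1 with CAT-ABP + alum, with overlap (log2 fold change −0.93, SE 0.28, adjusted p = 0.0127 in edgeR). The call ended with the length slope as a covariate (−0.55, adjusted p = 0.207). With alum the value was −0.29 (SE 0.34, adjusted p = 0.508). *Sod1* was lower in CT26 by values that did not pass, −0.28 (SE 0.14) under both treatments, with 142 ± 16.9 against 172 ± 20.0 CPM with alum. *Gpx1* was 273 ± 27.0 against 309 ± 11.2 CPM with alum (−0.18, SE 0.13, adjusted p = 0.288 in edgeR).

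The cell makeup of the tumors also differed between the lines. In CT26 the mean log2 CPM of the 8 fibroblast markers was 5.86 against 6.98 with alum and 6.04 against 7.10 with CAT-ABP + alum, and that of the 8 macrophage markers was 5.81 against 5.37 and 5.81 against 5.22. All 4 of these differences had p at most 0.0397 by the two-sided exact permutation test, and 6 and 7 of 11 marker lists had p under 0.05. Among those lists were the T cell list, at 3.29 against 1.26 with alum and 3.085 against 1.44 with CAT-ABP + alum. The smooth muscle and pericyte list, also among them, was 1.65 against 2.99 and 1.755 against 3.07. The part of these cells in the line differences of *Gpx7*, *Gpx8*, *Sod2* and *Gpx3* was not tested.

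*Sod3*, which removes superoxide in the extracellular matrix, was near the limit of detection. Its group means lay between 0.783 and 2.09 CPM and 1 tumor had no count. In CT26 tumors given CAT-ABP + alum it ranged from 0.204 to 1.37 CPM (1 to 12 counts), and in 4T1 tumors so treated from 1.03 to 2.40 CPM (2 to 17 counts). The difference in mean log2 CPM was −0.86 (two-sided exact permutation test, p = 0.0281, 6 against 6 tumors), 1 of 64 such single-gene tests made, 15 of which had p under 0.05. In the 1 comparison between 2 groups where edgeR tested it, CAT-ABP in 4T1-CAT, the log2 fold change was −0.08 (SE 0.50). It was also tested for differences between effects of CAT-ABP, and passed in neither. The values were −1.04 for CT26 against 4T1 (SE 0.78, unadjusted p = 0.191 in edgeR) and −0.53 for 4T1-CAT against 4T1 (SE 0.70, unadjusted p = 0.455 in edgeR).

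*Gpx4*, the peroxidase that protects membrane lipids and whose loss permits ferroptosis, could not be separated from a near-identical copy. The last 300 bases of its transcript match the processed pseudogene *Gpx4-ps2* at 99.7% identity, and that pseudogene held 1570 counts beside 1838 for *Gpx4*. *Gpx4* group means lay between 8.28 and 13.0 CPM and no comparison passed the test. With the length slope as a covariate its log2 fold change turned from 0.21 to −0.51 (adjusted p = 0.121 in edgeR) for CT26 against 4T1 with alum, and for both catalases it went from 0.35 to 0.65 (adjusted p = 0.448). With the counts of both summed, added after the values were seen, the log2 fold changes between 2 groups lay within −0.25 and 0.29 and none was called. *Sod1* has pseudogenes of the same kind (*Gm8566*, 18 counts, and *Gm8238*, 38 counts), which are small beside its 28533 counts. It also overlaps *Scaf4* (6001 counts) on the opposite strand.

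The 2 technical libraries of a tumor showed how much of the spread between tumors was repeatable. Over 38 tumors the log2 CPM of the 2 libraries correlated at r = 0.81 for *Gpx8* and at r = 0.21 to 0.40 for the other 7 genes, given as descriptions over libraries of unequal depth. The median difference between the 2 libraries of a tumor was 0.14 log2 units for *Gpx1*, 0.20 for *Sod1*, 0.42 for *Gpx7* and 0.80 for *Sod3*. For *Gpx4* it was 0.73. The SD of *Gpx4* between tumors of a group was 0.70 log2 units, but from the 2 libraries summed, so these 2 values cannot be compared directly.

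Within groups, the genes whose levels followed each member most closely over 38 tumors, among 11275 genes, are given as a description with no test. For *Gpx8* they were *Skp1*, *Rps18-ps6* and *Gm2000* (r = 0.98 each), and for *Gpx4* *Umps*, *Psmg2* and *Eif2b3* (r = 0.79 to 0.84). *H2-T23* (r = 0.78) and *Birc3* (r = 0.77) were among those of *Sod2*, and *Gpx3* was most like *Col3a1*, *Csf2rb2* and *Gm26716* (r = 0.83 to 0.84). *Gpx7* was most like *Oip5os1*, *Serpina1b* and *Zfand6* (r = 0.73 to 0.76), *Gpx1* most like *Zfand3*, *Ccdc102a* and *Vps54* (r = 0.80 to 0.82), *Sod1* most like *Ube2e1*, *Srsf9* and *Pebp1* (r = 0.82 to 0.83) and *Sod3* most like *Lcp1*, *Akap13* and *Marcks* (r = 0.79 to 0.82). Among the members themselves, *Gpx4* and *Gpx8* moved together (r = 0.75). *Gpx8* had negative values with *Sod3* (−0.63), *Gpx3* (−0.60) and *Sod1* (−0.58), as did *Gpx4* with *Gpx3* (−0.61), *Sod3* (−0.52) and *Sod1* (−0.49), and these 3 genes had the opposite sign to *Gpx4* and *Gpx8* along the length slope.

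Genes that supply or use the same chemistry were taken from lists of related pathways. In the 6 comparisons that did not set CT26 against 4T1, edgeR called no gene of any list. Between the lines, the list for glutathione synthesis and NADPH supply had 4 of 10 genes higher in CT26 and 1 lower with alum, and 2 higher and 1 lower with CAT-ABP + alum, beside 42.4% and 45.5% of all genes called. Its median log2 fold change was 0.34 with alum and 0.24 with CAT-ABP + alum, beside 0.02 and −0.02 for all genes. *Gclc*, the catalytic subunit of the enzyme that limits glutathione synthesis, was 19.2 ± 2.75 against 9.27 ± 0.75 CPM with alum (1.05, SE 0.17, adjusted p = 0.000121 in edgeR), and *Ggct*, which degrades gamma-glutamyl peptides, was 11.02 ± 4.29 against 29.3 ± 4.28 CPM (−1.47, SE 0.23, adjusted p = 9.95e-05).

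In the list for lipid peroxidation, where GPX4 acts, 1 of 6 genes tested was higher and 2 were lower with alum, and 3 of 7 were higher and 2 lower with CAT-ABP + alum, beside 42.4% and 45.5% of all genes. *Acsl4*, which loads polyunsaturated fatty acids into membrane lipids, was 40.3 ± 6.91 CPM in CT26 and 133 ± 12.7 CPM in 4T1 with alum (−1.72, SE 0.14, adjusted p = 1.74e-07 in edgeR). *Gch1*, the first enzyme of tetrahydrobiopterin synthesis, was 24.2 ± 8.12 against 3.07 ± 1.28 CPM (2.98, SE 0.31, adjusted p = 1.8e-06). For oxidative folding in the ER, the setting of GPX7 and GPX8, 2 of 10 genes were called with alum and 1 of 10 with CAT-ABP + alum, beside the same 42.4% and 45.5%. *Ero1a*, the oxidase that generates peroxide there, was higher in CT26 (94.2 ± 11.7 against 42.2 ± 9.06 CPM, 1.17, SE 0.17, adjusted p = 4.16e-05 in edgeR). *Qsox1*, a sulfhydryl oxidase, was lower (37.8 ± 11.03 against 80.4 ± 12.8 CPM, −1.08, SE 0.18, adjusted p = 0.000183) and was the one gene of the list called with CAT-ABP + alum (−1.05). Of 8 genes for selenoprotein synthesis, *Eefsec*, the selenocysteine elongation factor, was higher under both treatments (0.76 and 0.81). With CAT-ABP + alum, *Selenop* was also higher (0.55) and *Sephs2* lower (−0.49). None of the 4 genes for copper supply to SOD1 and SOD3 was called.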

How the data were processed

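The deposited values were estimated counts per gene in 76 libraries, which the authors made from the reads by the Smart-seq2 pipeline run on Terra and did not normalize, and 39.7% of those above 0 were fractional. The genome build and the treatment of unique molecular identifiers are not given in the sources used here. The 2 libraries of each tumor (library totals 46233 to 6958626) were summed and rounded, so that p-values cover the spread between tumors. Genes passing filterByExpr were TMM-normalized, and each comparison was fitted on its own groups by the quasi-likelihood method of edgeR 4.0.16 (R 4.3.3), with Benjamini-Hochberg adjustment over all genes tested and calls at 0.05. Differences of effects were interaction terms. Log2 CPM used a prior count of 2 and was compared by two-sided exact permutation tests (SciPy 1.17.1). SEs of fold changes were derived from the F statistics. The 95% intervals used normal quantiles of these SEs, so with few tumors they are narrower than the test implies. *Sod1* in CT26 against 4T1 with alum had an interval of −0.55 to −0.01 at an unadjusted p of 0.05965 in edgeR.

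Alternatives were DESeq2 1.42.0, RLE size factors, leaving out the filter on low counts, requiring a mean count of 20, 1 model over all 7 groups, replicate or index tag pool blocks, each technical replicate alone, low-depth libraries (under 518752 counts, 7 libraries) left out, limma 3.58.1 voom with quality weights, each tumor left out, and for single values a prior count of 0.5. A covariate for transcript length (the longest GENCODE M21 transcript) and the sum of *Gpx4* with *Gpx4-ps2* were added after seeing the data. Copies were searched with BLAST+ 2.17.0. The code was tested on simulated data. The members and lists were chosen with earlier results of these data known. The text names every member, at most 4 called genes per pathway list and comparison with the largest fold change, and for each member the 3 genes of highest within-group correlation among genes with a mean of at least 20 counts, and not every gene so picked from the lists is given. 1 gene picked by this rule is not reported here.

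The lists of cell type markers covered epithelial tumor cells, fibroblasts, smooth muscle and pericytes, endothelial cells, macrophages, neutrophils, T cells, adipocytes, skeletal muscle, epidermis and erythroid cells.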

Additional observations from a re-analysis of the deposited data

Results flagged for a closer look

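3 of the 56 sets of values (8 genes in 7 groups) held a tumor that stood apart from its group by Dixon's test on log2 CPM. Chance gives such a tumor in about 1 of 20 groups. All 3 were 4T1-control alum replicate 2, the tumor with the fewest counts (493044). It had 215 CPM of *Gpx1* (98 counts), 2.19 CPM of *Gpx3* (1 count) and 4.39 CPM of *Gpx7* (2 counts), each the lowest of its group, and its 2 libraries were both under the depth limit. Without it, *Gpx7* in 4T1-CAT against 4T1-control was 0.79 in place of 0.84, and *Gpx3* in 4T1-control against 4T1 was −0.80 in place of −0.82. On the log2 scale, the 16.6 CPM of *Gpx3* in 4T1-CAT alum replicate 5 did not stand apart by the test.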

How the results depend on the processing

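The number of members called changed by more than 1.5 times under 2 alternatives. With no filter on low counts, 1 member was called for intracellular catalase (*Gpx7*, 0.85, adjusted p = 0.0379), and with DESeq2, 1 member was called for CAT-ABP in 4T1-CAT (*Sod2*). Leaving out 1 tumor at a time gave 2 to 3 members for CT26 against 4T1 with alum, 3 to 4 with CAT-ABP + alum and 0 elsewhere. The value of *Gpx7* for CAT-ABP in 4T1 turned to −0.08 (−0.0784) in the second technical replicate alone. The difference of *Gpx3* between 4T1-CAT and 4T1-control, tested by exact permutation, fell to 0.626 (p = 0.0635) without low-depth libraries. The *Sod2* line difference with alum was also lost with no filter (0.40, adjusted p = 0.0781) and in the second technical replicate alone (0.24, adjusted p = 0.353), and that of *Gpx3* with CAT-ABP + alum in the second technical replicate alone (−0.85, adjusted p = 0.0955). The causes were not tested. Counts over all genes moved more: for both catalases against 4T1-control, 3 genes became 510 with DESeq2, 532 with no filter, 331 with voom, 142 without low-depth libraries and 575 without 4T1-control replicate 3. No member was called by voom, and DESeq2 gave *Gpx3* no adjusted p there. With no filter, 131 genes were called for intracellular catalase, 130 for 4T1-control against 4T1, 47 for CAT-ABP in 4T1-CAT and 16 for CAT-ABP in 4T1. The remaining counts over all genes beyond 1.5 times were, for both catalases, 31 with 1 model over 7 groups, 14 with the length covariate, 0 and 1 in the technical replicates alone and as few as 0 with a tumor left out. For CAT-ABP in 4T1-CAT they were 249 with DESeq2, 10 with voom and 9 with the length covariate in place of 0. For 4T1-control against 4T1 they were 16 with DESeq2, 24 with the length covariate, 14 without low-depth libraries, 12 with voom and 10 with 1 model in place of 0, and 0 to 6 with a tumor left out, 6 of 11 of these being above 0 and the highest without 4T1-control replicate 2. With a tumor left out, 0 to 1 were called for intracellular catalase (1 without 4T1-CAT alum replicate 3) and for CAT-ABP in 4T1-CAT (1 without CAT-ABP + alum replicate 3 or 5). For CT26 against 4T1 they were 2849 in place of 5434 with alum and 3559 in place of 5928 with CAT-ABP + alum in the second technical replicate alone. DESeq2 called 6 genes for intracellular catalase, and DESeq2, voom, no filter and the length covariate called 1 each for CAT-ABP in CT26. The differences of effects gave 2 and 1 with no filter. Replicate numbers did not pair the tumors: same-numbered tumors correlated above 0.1 in 0 to 2 pairs per comparison. With the replicate block the number of members called did not change in any comparison, *Gpx7* for intracellular catalase was 0.92 (adjusted p = 1.0), and over all genes 3 were called for CAT-ABP in 4T1-CAT and 1 for both catalases. Depth limits *Sod3*, with at most 19 counts per tumor, and *Gpx3*.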
